A study of Mus musculus with 38 samples.

Results

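The genes described here are 10 members of the nutrient-sensing pathway built around the kinases mTOR and AMPK, followed through the livers of calorie-restricted, fasted and freely fed mice. They are Mtor, Rptor, Rictor, Deptor, Ddit4, Sesn1, Sesn3, Prkaa1, Prkaa2 and Stk11, taken by name, and their rows were found by the symbol that ends the first transcript entry of each row of the expected count table. All 10 were present among the 21954 genes of the table, and all 10 passed the filter on low counts among 13786 tested genes. Liver RNA of female, wild-type C57BL/6 mice was sequenced in 38 libraries of 13 groups. Livers of calorie-restricted (CR) mice taken at 0, 6, 14 and 22 h account for 2, 3, 3 and 4 libraries in that order. Livers of mice that were fasted (F) and taken at 6, 14 or 22 h account for 3 libraries per time. Mice fed ad libitum (AL), which ate freely, account for 3, 2, 3 and 3 libraries at 0, 6, 14 and 22 h. At zeitgeber time 18, the hour of the light cycle, 3 libraries came from CR mice whose meal was withheld (CR missed) and 3 from CR mice that received it (CR fed). The event that starts the hour count is not given in the labels, and neither is a separate animal for each replicate, so p-values measure the spread between these samples, which may be technical. Ages in the labels run from 5 to 44 months and no age occurs in more than 1 group, so if they are right, age and group cannot be told apart.

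mTOR is a protein kinase that promotes protein synthesis and growth when amino acids and insulin signals are plentiful. It works in a pair of complexes: mTORC1, held together by raptor (Rptor), which responds to amino acids and energy, and mTORC2, held together by rictor (Rictor), which phosphorylates AKT downstream of insulin. DEPTOR binds the mTOR kinase and inhibits it, and REDD1 (Ddit4) and the sestrins (Sesn1, Sesn3) restrain mTORC1 under stress, through the TSC complex or through the GATOR proteins that read amino acids at the lysosome. AMPK is the sensor of low cellular energy, with a catalytic subunit encoded by Prkaa1 or Prkaa2, and is switched on by the kinase LKB1 (Stk11). In the liver this network couples feeding and fasting to lipid synthesis, autophagy and glucose output. Much of its control acts on proteins by phosphorylation, which RNA levels do not measure.

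Depth was 17131292 to 30152277 expected counts per library, and the members held between 49 counts (Ddit4) and 5091 counts (Deptor) in a library. All 8 hepatocyte markers were abundant, with albumin (Alb) at 47500 to 137000 CPM (counts scaled to the normalised library size). A total of 5 libraries (AL 0 h 3, CR 6 h 3, CR 14 h 3, CR 22 h 3 and CR fed 3) had a profile nearer to a group of another diet than to their own, and the clock genes of 2 further libraries (AL 0 h 2 and AL 22 h 2) went against their time. All 5 libraries nearer to another diet carry replicate number 3. Values without them stand beside most results of the groups they belong to, while the group orders and correlations include them. Libraries also differed in how expression varied with transcript length. Fasted libraries had relatively more of the long transcripts (Spearman's rho of expression against length 0.129 to 0.383), against -0.446 to -0.0308 in AL libraries at 14 and 22 h. The longest annotated transcripts of Rictor (9312 nt), Sesn3 (9125 nt), Mtor (8564 nt), Deptor (8547 nt), Prkaa2 (7969 nt) and Rptor (6594 nt) are long, while that of Ddit4 spans 1755 nt. Fold changes are therefore also given after the length trend of each library was removed.

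Levels of different genes were compared on the length-normalised scale of the deposited TPM values (a measure of transcript abundance per length) that the authors rescaled. Stk11 was the highest of the members, with a median of 52.3 rescaled TPM over the 38 libraries, and Deptor followed with 24.2 rescaled TPM. Among the AMPK catalytic subunits, Prkaa2 (median 10.6 rescaled TPM) exceeded Prkaa1 (3.69 rescaled TPM) in 38 of 38 libraries, by a ratio of 1.62 to 4.55. The scaffold of mTORC1, Rptor (8.25 rescaled TPM), exceeded that of mTORC2, Rictor (2.20 rescaled TPM), in 38 of 38 libraries as well, by a ratio of 1.76 to 7.50. The kinase Mtor itself had a median of 7.44 rescaled TPM. Sesn1 reached 6.41, Ddit4 5.87 and Sesn3 4.16 rescaled TPM in the median library.

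The promoters of Mtor, Rptor and Rictor are shown because these were the 3 members that rose together in fasted livers at 22 h. RefSeq windows on GRCm38.p6 were found for 9 of the 10 members (Deptor had no window). The 250 bases before each start site are given on the gene's own strand, in lower case throughout since none of the motifs searched occurred there. Mtor lies on chromosome 4, and its bases run over chr4:148448332-148448581 on the plus strand. Rptor lies on chromosome 11, with its bases at chr11:119602655-119602904 on the plus strand, and Rictor on chromosome 15, at chr15:6708131-6708380, also on the plus strand.
Mtor: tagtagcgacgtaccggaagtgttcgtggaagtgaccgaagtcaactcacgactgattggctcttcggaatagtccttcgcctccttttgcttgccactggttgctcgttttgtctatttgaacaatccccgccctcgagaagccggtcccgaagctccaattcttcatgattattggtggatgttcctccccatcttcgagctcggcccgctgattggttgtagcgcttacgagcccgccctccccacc
Rptor: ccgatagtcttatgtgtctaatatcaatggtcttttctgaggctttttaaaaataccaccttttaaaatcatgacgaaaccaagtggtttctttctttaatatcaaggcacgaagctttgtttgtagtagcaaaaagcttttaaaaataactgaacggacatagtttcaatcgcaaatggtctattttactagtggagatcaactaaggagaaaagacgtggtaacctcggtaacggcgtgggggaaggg
Rictor: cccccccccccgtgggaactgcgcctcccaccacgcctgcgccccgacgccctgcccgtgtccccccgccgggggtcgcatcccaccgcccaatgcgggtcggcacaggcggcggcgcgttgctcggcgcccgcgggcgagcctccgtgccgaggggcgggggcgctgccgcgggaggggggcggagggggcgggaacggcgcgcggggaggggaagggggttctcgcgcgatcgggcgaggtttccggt
Their G and C content was 54.4% for Mtor, 37.6% for Rptor and 81.2% for Rictor, so that the Rptor stretch was rich in A and T and the Rictor stretch in G and C. In windows of 300 bases, 250 before and 50 after the start, both strands of the 9 members were searched for the E-box CACGTG bound by clock factors (in 7.15% of 32851 mouse windows), the FOXO site GTAAACA (3.65%), the half-site pair ACANNNTGT of steroid receptors (6.85%), the cyclic AMP element TGACGTCA (1.79%) and TGATGNAA, the composite element of ATF4 and C/EBP factors (3.97%). FOXO factors are held out of the nucleus by insulin signalling and enter it in fasting. Matches were found only for the FOXO site, in Sesn1 and in Stk11, both on chromosome 10. They are shown in stretches of 30 bases with the matched letters in capitals, where the Sesn1 match is on the opposite strand and begins 22 bases after the start and the Stk11 match begins 16 bases after it. No motif overlapped another.
Sesn1: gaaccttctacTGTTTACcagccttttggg
Stk11: ggcgcagggcgGTAAACAagatggcggcgg
A match describes the letters of the window and not a bound site.

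Livers of F and AL mice taken at 6, 14 or 22 h were set against each other at each time. Mtor was called higher in fasted livers at all 3 times, Rptor at 14 and 22 h and Rictor at 22 h. By edgeR's quasi-likelihood test with Benjamini-Hochberg adjustment and a threshold of 0.05, 1 of 10 members changed at 6 h (Mtor), where 2.34% of all tested genes were called (1.2% higher, 1.13% lower). At 14 h the count was 4 of 10 (Mtor, Rptor and Prkaa1 upward, Stk11 downward), where 24.5% of all tested genes were called (11.8% higher, 12.7% lower). At 22 h it was 3 of 10, all upward (Mtor, Rptor and Rictor), where 11.5% of all tested genes were called (6.06% higher, 5.4% lower). The median log2 fold change of the 10 members was 0.14 at 6 h, 0.50 at 14 h and 0.46 at 22 h, beside -0.02, -0.04 and -0.03 over all tested genes. Longer transcripts had higher fold changes over all genes (rho = 0.192, 0.403 and 0.389 at 6, 14 and 22 h, Spearman), and most members are long. For that reason each call is set beside its value with the length trend removed, where 0, 1 and 0 members were called at 6, 14 and 22 h. The shares of all tested genes called with the trend removed were 3.02%, 17.2% and 7.78%. Overlap between the libraries of compared groups is given as a description of few libraries. The share of all tested genes without overlap was not counted, so a lack of overlap is not read as support.

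Mtor had 48.0, 44.8 and 49.1 CPM in F livers at 6 h, against 23.3 and 25.1 CPM in AL livers, a log2 fold change of 0.97 ± 0.26 (SE, adjusted p = 0.0395 by edgeR). At 14 h it had 71.1, 58.3 and 58.8 CPM in F livers, against 25.8, 47.4 and 25.1 CPM in AL livers (0.93 ± 0.23, adjusted p = 0.00365 by edgeR). At 22 h the values were 72.4, 62.8 and 38.6 CPM in F livers, against 26.6, 22.8 and 29.6 CPM in AL livers (1.14 ± 0.23, adjusted p = 0.0019 by edgeR). Every fasted library lay above every AL library at each of the 3 times, although AL 14 h 2 and F 22 h 3 stood apart from their groups. The calls at 14 and 22 h held when any 1 of the 6 libraries was left out (largest adjusted p = 0.0373 at 14 h and 0.024 at 22 h by edgeR). That at 6 h was lost without any 1 of its 5 libraries (log2 fold change 0.92 to 1.01, edgeR adjusted p = 0.09 to 0.34). With the length trend removed, Mtor stood at 0.80 (adjusted p = 0.0678) at 6 h, 0.47 (adjusted p = 0.132) at 14 h and 0.63 (adjusted p = 0.0673) at 22 h, all by edgeR, so that none of the 3 calls remained. The part of the length trend in these changes was not tested.

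**Figure D1:**
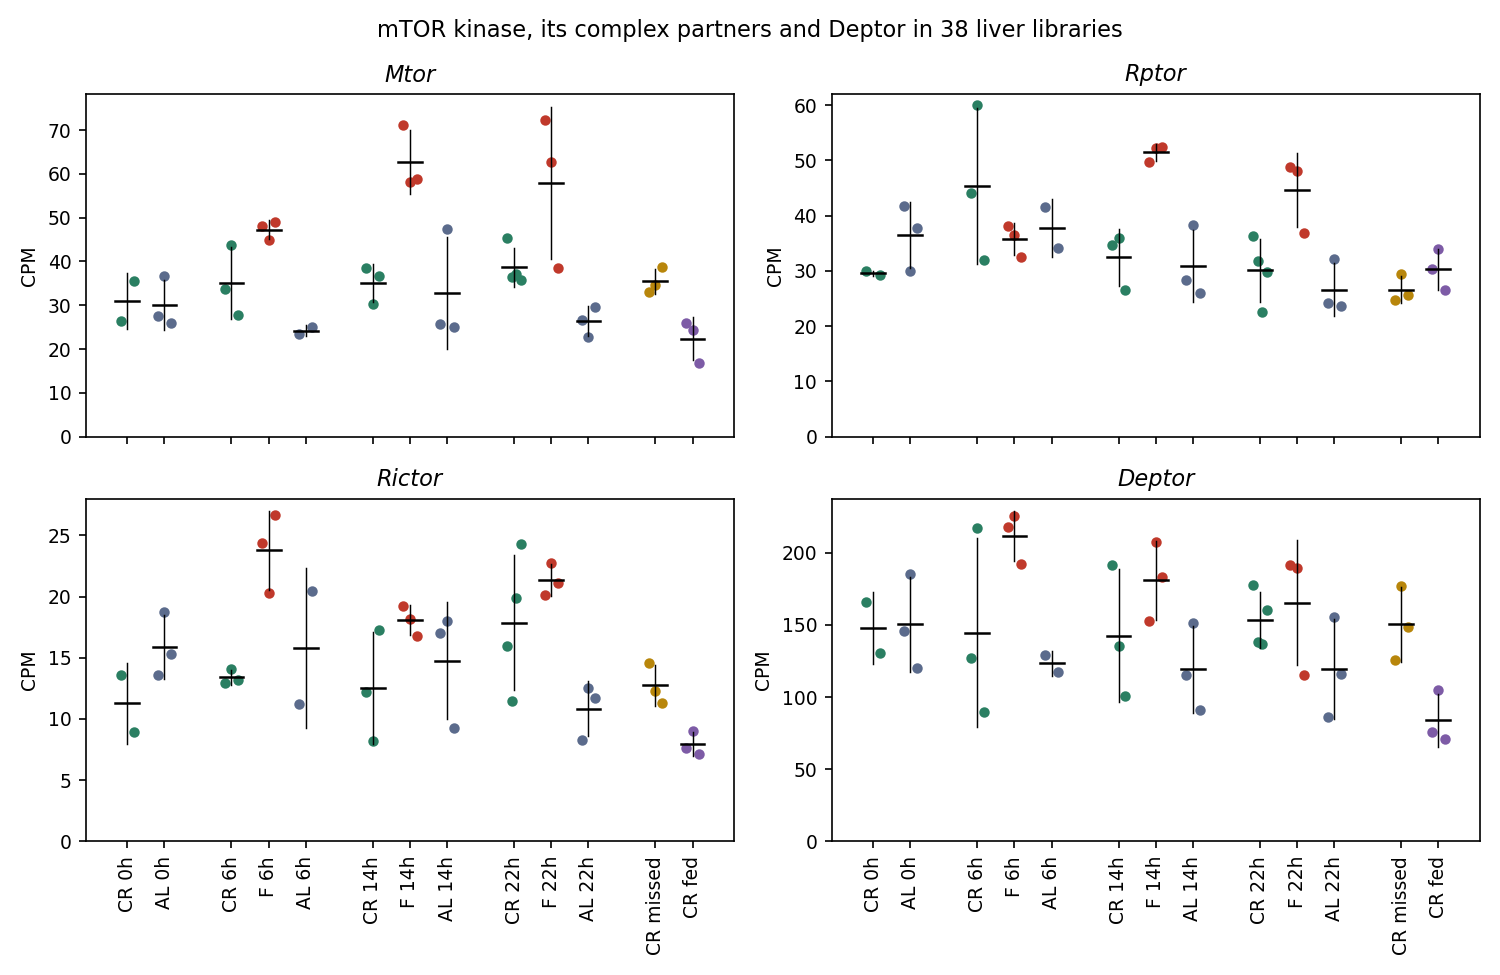
CPM of Mtor, Rptor, Rictor and Deptor in each of the 38 libraries (points), by diet and time, with the group mean (horizontal line) and SD (vertical line). The F groups of Mtor lie above the AL groups at 6, 14 and 22 h, and the CR fed group holds the lowest mean of Mtor, Rictor and Deptor.

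Rptor, the mTORC1 scaffold, had 38.1, 36.5 and 32.5 CPM in F livers at 6 h, against 41.5 and 34.1 CPM in AL livers, and did not pass the test (-0.08 ± 0.22, adjusted p = 0.914 by edgeR). At 14 h it had 49.7, 52.2 and 52.5 CPM in F livers, against 28.4, 38.3 and 26.0 CPM in AL livers, and at 22 h 48.7, 48.1 and 36.8 CPM in F livers, against 24.1, 32.1 and 23.6 CPM in AL livers. Both times showed no overlap between the groups and the same fold change, 0.74 ± 0.20, with an edgeR adjusted p = 0.00808 at 14 h and 0.0149 at 22 h. The call at 14 h was lost without AL 14 h 3 (0.63, adjusted p = 0.0596 by edgeR), and that at 22 h without AL 22 h 1, AL 22 h 3, F 22 h 1 or F 22 h 2 (0.67 to 0.70, edgeR adjusted p = 0.0577 to 0.0748). With the length trend removed Rptor stood at 0.34 (adjusted p = 0.158) at 14 h and 0.39 (adjusted p = 0.14) at 22 h by edgeR. A change of the F and AL difference of Rptor over time did not pass the test (adjusted p = 0.421 by edgeR), so its call at 14 and 22 h and not at 6 h does not show that the times differ.

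Rictor, the mTORC2 scaffold, rose at 22 h. It had 20.1, 22.7 and 21.1 CPM in F livers, against 8.26, 12.6 and 11.7 CPM in AL livers, without overlap (0.98 ± 0.27, adjusted p = 0.0162 by edgeR). At 6 h it had 24.4, 20.3 and 26.6 CPM in F livers, against 11.2 and 20.4 CPM in AL livers (0.59 ± 0.30, adjusted p = 0.368 by edgeR), and at 14 h the groups overlapped (0.29 ± 0.27, adjusted p = 0.455 by edgeR), with -0.18 after removal of the length trend. The 22 h call was lost without AL 22 h 1 (0.83, adjusted p = 0.0947 by edgeR) and with the length trend removed (0.48, adjusted p = 0.185 by edgeR).

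**Figure D2:**
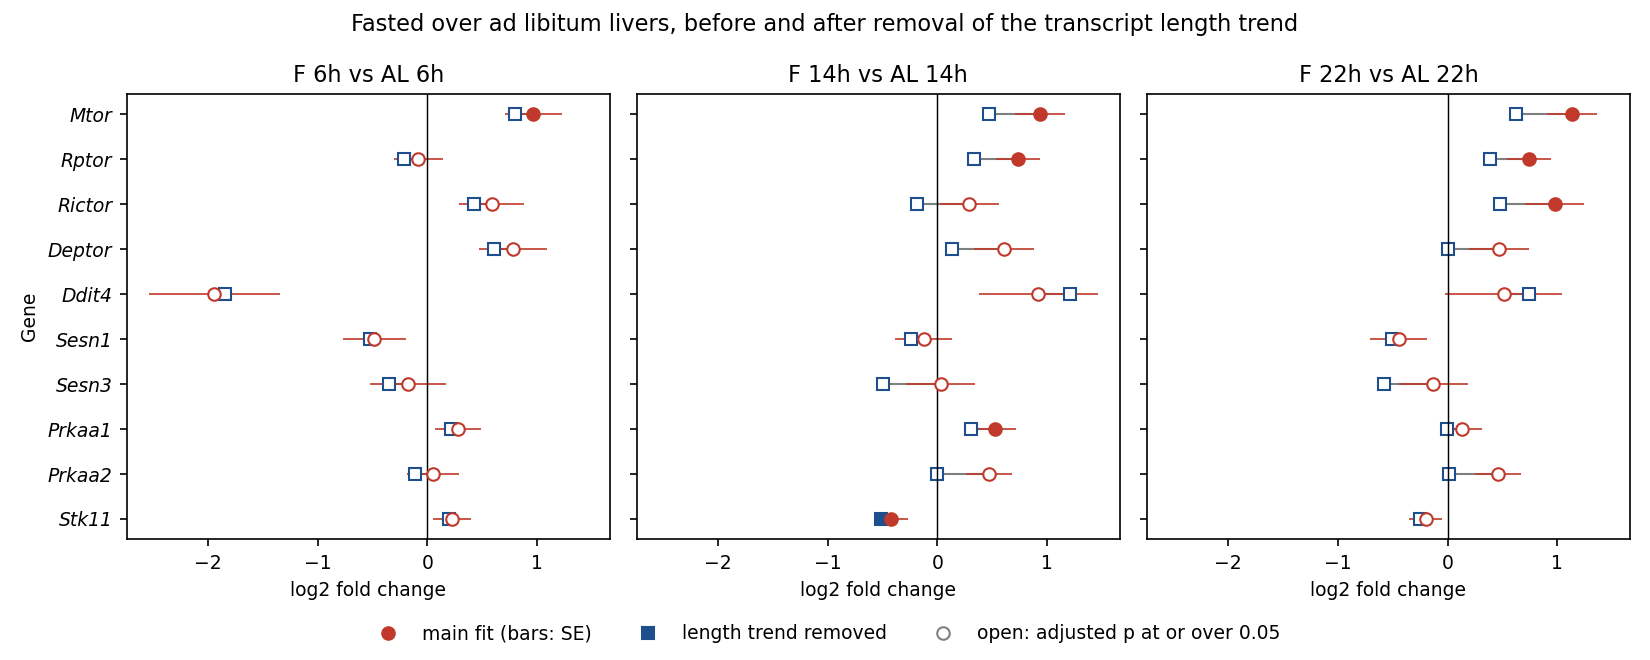
Log2 fold changes of the 10 members in F over AL livers at 6, 14 and 22 h, by the edgeR model (circles, bars give the SE) and after the transcript length trend of each library was removed (squares). Filled symbols have an adjusted p under 0.05, and of the filled circles only that of Stk11 at 14 h has a filled square beside it.

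Among the inhibitors of mTOR, none changed past the threshold in fasted livers. Deptor had 217.9, 225.3 and 192.1 CPM in F livers at 6 h, against 129.5 and 117.2 CPM in AL livers, and the groups did not overlap (0.78 ± 0.31, adjusted p = 0.218 by edgeR). At 14 h it had 152.8, 207.5 and 183.0 CPM in F livers, against 115.0, 151.3 and 91.3 CPM in AL livers, again without overlap (0.60 ± 0.27, adjusted p = 0.107 by edgeR). At 22 h the groups overlapped (0.47 ± 0.27, adjusted p = 0.27 by edgeR). Removal of the length trend left Deptor at 0.61 at 6 h, 0.13 at 14 h and 0.00051 at 22 h. With AL 14 h 2 left out and the trend kept, it passed at 14 h (0.81, adjusted p = 0.0489 by edgeR).

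Ddit4, which encodes the stress-induced mTORC1 inhibitor REDD1, was the member with the largest fold change of the F and AL comparisons. It had 2.61, 2.97 and 2.64 CPM in F livers at 6 h, against 13.9 and 7.21 CPM in AL livers (-1.94 ± 0.60, adjusted p = 0.0794 by edgeR). The groups did not overlap, but the 2 AL libraries differed from each other by more than the 3 fasted libraries did, and the change passed the threshold with DESeq2 (-1.95, adjusted p = 0.0254) and not with edgeR. It also passed without the 5 libraries nearer to another diet (-1.95, adjusted p = 0.0372 by edgeR), none of which is in these groups. At 14 h 1 fasted library had 16.1 CPM and the other two had 3.89 and 3.42 CPM, against 4.45, 3.65 and 4.31 CPM in AL livers, so the mean of Ddit4 there rests on F 14 h 1. Sesn1 and Sesn3, sestrins that restrain mTORC1, gave no call at any time. Sesn1 had 9.06, 9.80 and 9.46 CPM in F livers at 22 h, against 10.9, 16.0 and 11.6 CPM in AL livers, lower without overlap (-0.45 ± 0.26, adjusted p = 0.28 by edgeR), and Sesn3 stayed between -0.18 and 0.03 on the log2 scale at the 3 times. With the length trend removed, Sesn3 stood at -0.35 at 6 h, -0.49 at 14 h and -0.58 at 22 h. None of these was called (adjusted p = 0.674, 0.229 and 0.204 by edgeR).

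Of the AMPK genes, Prkaa1 rose at 14 h with 17.9, 14.1 and 13.03 CPM in F livers, against 13.2, 9.19 and 8.94 CPM in AL livers (0.53 ± 0.19, adjusted p = 0.0359 by edgeR). The groups overlapped, and the call was lost without AL 14 h 2, AL 14 h 3 or F 14 h 1 (0.38 to 0.44, edgeR adjusted p = 0.115 to 0.193) and with the length trend removed (0.30, adjusted p = 0.253 by edgeR). Prkaa2, the more abundant catalytic subunit, had 66.4, 62.6 and 54.7 CPM in F livers at 14 h, against 37.1, 55.8 and 39.9 CPM in AL livers (0.47 ± 0.21, adjusted p = 0.105 by edgeR), and a change of 0.46 ± 0.21 without overlap at 22 h (adjusted p = 0.157 by edgeR). Prkaa2 stood at -0.0020 at 14 h and 0.017 at 22 h after the length trend was removed. Stk11, the gene of the AMPK-activating kinase LKB1, was the only member called lower in fasted livers. At 14 h it had 61.3, 78.0 and 66.1 CPM in F livers, against 92.2, 100.3 and 82.8 CPM in AL livers, without overlap (-0.42 ± 0.15, adjusted p = 0.0412 by edgeR). Removing the length trend left this call in place (-0.52, adjusted p = 0.00894 by edgeR). It was lost without AL 14 h 1, AL 14 h 2, F 14 h 1 or F 14 h 3 (-0.42 to -0.35, edgeR adjusted p = 0.0965 to 0.162). The call was also lost without the 5 libraries nearer to another diet (-0.41, adjusted p = 0.054 by edgeR), none of which is in these groups.

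Markers of sinusoidal endothelium moved in the same comparison at 14 h. Of 8 such markers 6 were called higher in F livers and none lower, with a summed level of 248 to 307 CPM in F livers and 75.6 to 177 CPM in AL livers. For Kupffer cells 1 of 8 markers was called higher (251 to 361 CPM in F livers, 185 to 276 CPM in AL livers), beside 11.8% of all tested genes. Of 8 hepatocyte markers 3 were called higher and 1 lower, with a summed level of 93100 to 118000 CPM in F livers and 131000 to 140000 CPM in AL livers. The stellate cell list and the adipocyte and pancreas list each had 1 marker called higher. The part of these cell types in the changes of Mtor, Rptor, Prkaa1 and Stk11 was not tested. In whole liver, fewer cells of a type and less RNA per cell cannot be told apart. At 6 h no endothelial or Kupffer marker was called, and at 22 h 1 of 8 endothelial markers was.

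**Figure D3:**
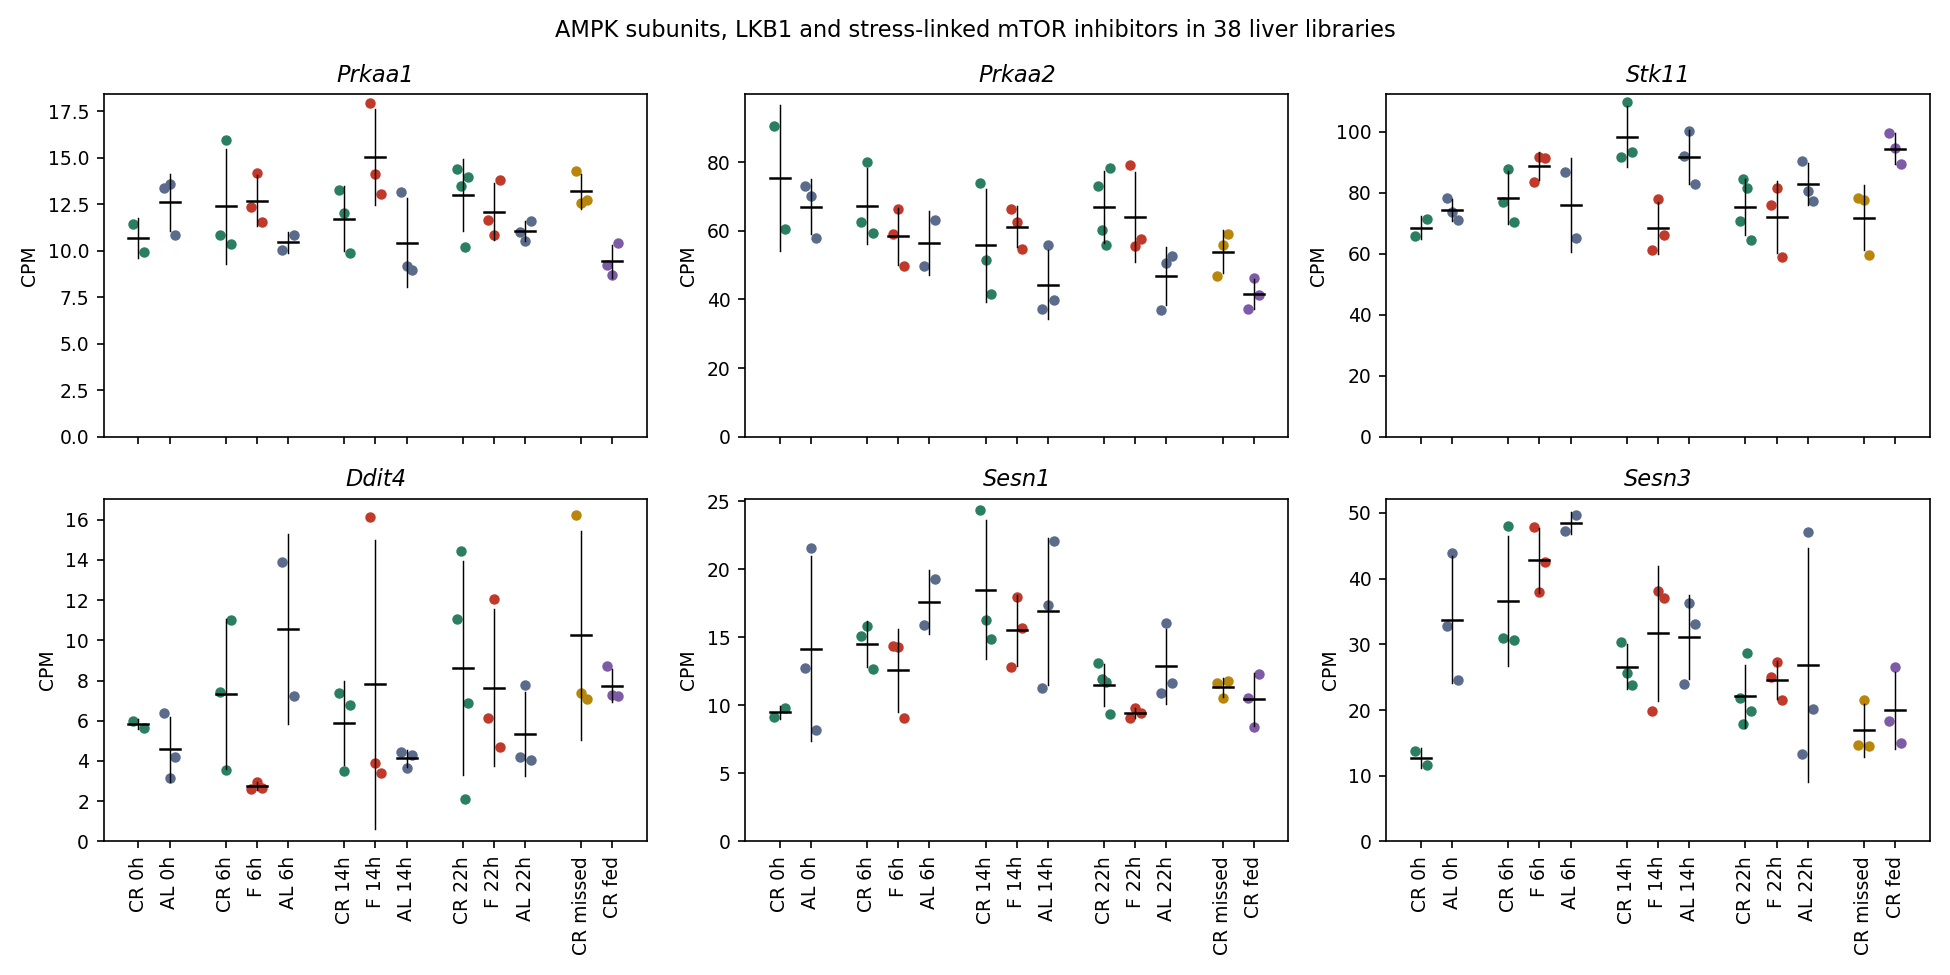
CPM of Prkaa1, Prkaa2, Stk11, Ddit4, Sesn1 and Sesn3 in each of the 38 libraries (points), by diet and time, with the group mean (horizontal line) and SD (vertical line). Stk11 in F 14 h lies below CR 14 h and AL 14 h, Sesn3 is lowest in CR 0 h, and single high libraries stand out for Ddit4 in F 14 h and CR missed.

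Calorie-restricted and AL livers were compared with each other at 0, 6, 14 and 22 h. No member was called by edgeR at any of the 4 times, where 0.479% of all tested genes were called at 0 h (0.21% higher, 0.268% lower) and 0% at 6 h. At 14 h the share of tested genes called was 0.0218% (0.00725% higher, 0.0145% lower) and at 22 h it was 4.88% (2.57% higher, 2.31% lower), again with no member called. At an unadjusted p under 0.05 the counts were 1, 1, 0 and 3 of 10 members. The counts of all 13786 tested genes were then 1483, 568, 1330 and 2936. DESeq2 called 1, 0, 0 and 1 members, beside 1.76%, 0.0653%, 0.501% and 8.12% of all tested genes. With limma on the rescaled TPM 0, 0, 0 and 1 were called, beside 0.661%, 0.0367%, 0.0367% and 5.81%. Without the 5 libraries nearer to another diet, which include a CR or AL library of 0, 6, 14 and 22 h, many more genes were called between CR and AL livers. The shares of all tested genes were then 3.09%, 0.789%, 4.79% and 15.3% in order of time, with 1, 0, 0 and 1 members called. These libraries were picked from the same data because their profiles lay nearer to another diet. Leaving them out therefore widens the difference of CR and AL livers by the way they were picked. Calls gained by it are not read as support.

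Sesn3 at 0 h came closest. It had 13.8 and 11.6 CPM in CR livers, against 32.8, 43.9 and 24.6 CPM in AL livers (-1.41 ± 0.37, adjusted p = 0.0777 by edgeR). Both CR libraries lay below every AL library. AL 0 h 3, one of the libraries nearer to another diet, had the lowest AL value, and without it the change passed (-1.59, adjusted p = 0.0299 by edgeR). That library lay nearest to CR livers at 0 h, so this gain is not read as support. DESeq2 (-1.39, adjusted p = 0.0137) and removal of the length trend (-1.43, adjusted p = 0.0284 by edgeR) brought it past the threshold too. Without the 7 libraries of doubtful diet or clock it stood at -1.37 (adjusted p = 0.0542 by edgeR).

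At 22 h Mtor, Rictor and Prkaa2 had higher means in CR livers and an unadjusted p under 0.05, without passing the adjusted threshold. Mtor had 45.3, 36.5, 37.1 and 35.7 CPM in CR livers, against 26.6, 22.8 and 29.6 CPM in AL livers, without overlap (0.56 ± 0.21, adjusted p = 0.122 by edgeR). It was called by limma on the rescaled TPM (0.77, adjusted p = 0.0308), and stood at 0.57 (adjusted p = 0.0813 by edgeR) without the 5 libraries nearer to another diet and at 0.31 (adjusted p = 0.395 by edgeR) with the length trend removed. Rictor had 16.0, 11.4, 19.8 and 24.3 CPM in CR livers, against 8.26, 12.6 and 11.7 CPM in AL livers (0.72 ± 0.25, adjusted p = 0.0887 by edgeR), and was the 1 member DESeq2 called (0.74, adjusted p = 0.0489). Rictor stood at 0.66 (adjusted p = 0.0929 by edgeR) without those 5 libraries and at 0.43 (adjusted p = 0.218 by edgeR) with the length trend removed. Prkaa2 had 73.2, 60.3, 56.0 and 78.5 CPM in CR livers, against 37.0, 50.7 and 52.6 CPM in AL livers, without overlap (0.52 ± 0.20, adjusted p = 0.12 by edgeR). It passed without the same 5 libraries (0.59, adjusted p = 0.0474 by edgeR), and stood at 0.29 (adjusted p = 0.262 by edgeR) with the length trend removed. CR 22 h 3, left out in the former fit, lay nearest to AL livers at 22 h, so that gain is not read as support. Markers of Kupffer cells were called lower in CR livers for 3 of 8 at this time, with a summed level of 101 to 232 CPM in CR livers and 251 to 343 CPM in AL livers, and their part was not tested.

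The CR and F livers were compared at 6, 14 and 22 h. Since the event that starts the hours is not in the labels, the time without food may differ between them. These comparisons share the F libraries with those of F against AL, so the values are given side by side and not as separate support. By edgeR, no member was called at 6 h, where 6.8% of all tested genes were called (3.39% higher, 3.41% lower). At 14 h 3 of 10 members were called, where the share of all tested genes was 17.1% (9.1% higher, 7.97% lower), and at 22 h 1 of 10, where it was 9.44% (5.13% higher, 4.32% lower). At 6 h, 2 of 10 members had an unadjusted p under 0.05, beside 2880 of 13786 tested genes. DESeq2 called 1 of them, Rictor, beside 8.99% of all tested genes.

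Mtor at 14 h had 38.4, 30.3 and 36.6 CPM in CR livers, against 71.1, 58.3 and 58.8 CPM in F livers, and fell by 0.84 ± 0.23 on the log2 scale (adjusted p = 0.0106 by edgeR). Rptor had 34.8, 35.9 and 26.6 CPM in CR livers, against 49.7, 52.2 and 52.5 CPM in F livers, and fell by 0.67 ± 0.20 (adjusted p = 0.0201 by edgeR). Stk11 ran the other way, with 91.8, 109.9 and 93.5 CPM in CR livers, against 61.3, 78.0 and 66.1 CPM in F livers, and rose by 0.52 ± 0.15 (adjusted p = 0.0171 by edgeR). The groups of these 3 called genes did not overlap, a description given without its share over all tested genes. With the length trend removed, the Stk11 change stayed (0.59, adjusted p = 0.00404 by edgeR), while Mtor (-0.44, adjusted p = 0.171) and Rptor (-0.37, adjusted p = 0.127) no longer passed. Across all genes the CR over F fold changes at 14 h fell with transcript length (Spearman's rho -0.332), and the summed endothelial markers were 186 to 255 CPM in CR livers and 248 to 307 CPM in F livers, with 2 of 8 called lower. Without the 5 libraries nearer to another diet, CR 14 h 3 among them, Mtor (-0.87, adjusted p = 0.0207) and Stk11 (0.55, adjusted p = 0.034) were called and Rptor was not (-0.55, adjusted p = 0.055), all by edgeR.

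Each of these calls depended on some single libraries. Mtor lost its call without CR 14 h 2 or F 14 h 1 (-0.74, edgeR adjusted p = 0.0557 and 0.0589). Rptor did so without CR 14 h 3 (-0.54, adjusted p = 0.106 by edgeR) or F 14 h 3 (-0.65, adjusted p = 0.0544 by edgeR). Stk11 did so without CR 14 h 2, F 14 h 1 or F 14 h 3 (0.44 to 0.50, edgeR adjusted p = 0.0616 to 0.097).

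At 22 h Rptor had 36.3, 31.8, 22.6 and 29.8 CPM in CR livers, against 48.7, 48.1 and 36.8 CPM in F livers, lower by a small gap between the nearest libraries (-0.56 ± 0.19, adjusted p = 0.0496 by edgeR). The call was lost without CR 22 h 2, CR 22 h 3, CR 22 h 4, F 22 h 1 or F 22 h 2 (-0.59 to -0.45, edgeR adjusted p = 0.078 to 0.194), with DESeq2 size factors (-0.57, adjusted p = 0.0516 by edgeR) and with the length trend removed (-0.37, adjusted p = 0.112 by edgeR). Without the 5 libraries nearer to another diet, CR 22 h 3 among them, it was -0.46 (adjusted p = 0.0681 by edgeR). Mtor had a change of -0.58 ± 0.21 (adjusted p = 0.0711 by edgeR), with CR 22 h 1 above F 22 h 3, and of -0.58 (adjusted p = 0.0764 by edgeR) without the libraries nearer to another diet. At 6 h Rictor had 12.9, 14.1 and 13.2 CPM in CR livers, against 24.4, 20.3 and 26.6 CPM in F livers (-0.83 ± 0.27, adjusted p = 0.0556 by edgeR). The CR values of Rictor lay close together and far below the fasted ones, and the change passed with DESeq2 (-0.82, adjusted p = 0.0351) and with the length trend removed (-0.76, adjusted p = 0.0272 by edgeR). It did not pass without the 5 libraries nearer to another diet, CR 6 h 3 among them (-0.81, adjusted p = 0.0898 by edgeR), nor in any of the 6 fits that each left out 1 library. Ddit4 had 7.42, 3.53 and 11.0 CPM in CR livers at 6 h, against 2.61, 2.97 and 2.64 CPM in F livers (1.42 ± 0.56, adjusted p = 0.125 by edgeR). All CR libraries lay above all fasted ones, and without the 5 libraries nearer to another diet Ddit4 stood at 1.01 (adjusted p = 0.264 by edgeR).

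**Figure D4:**
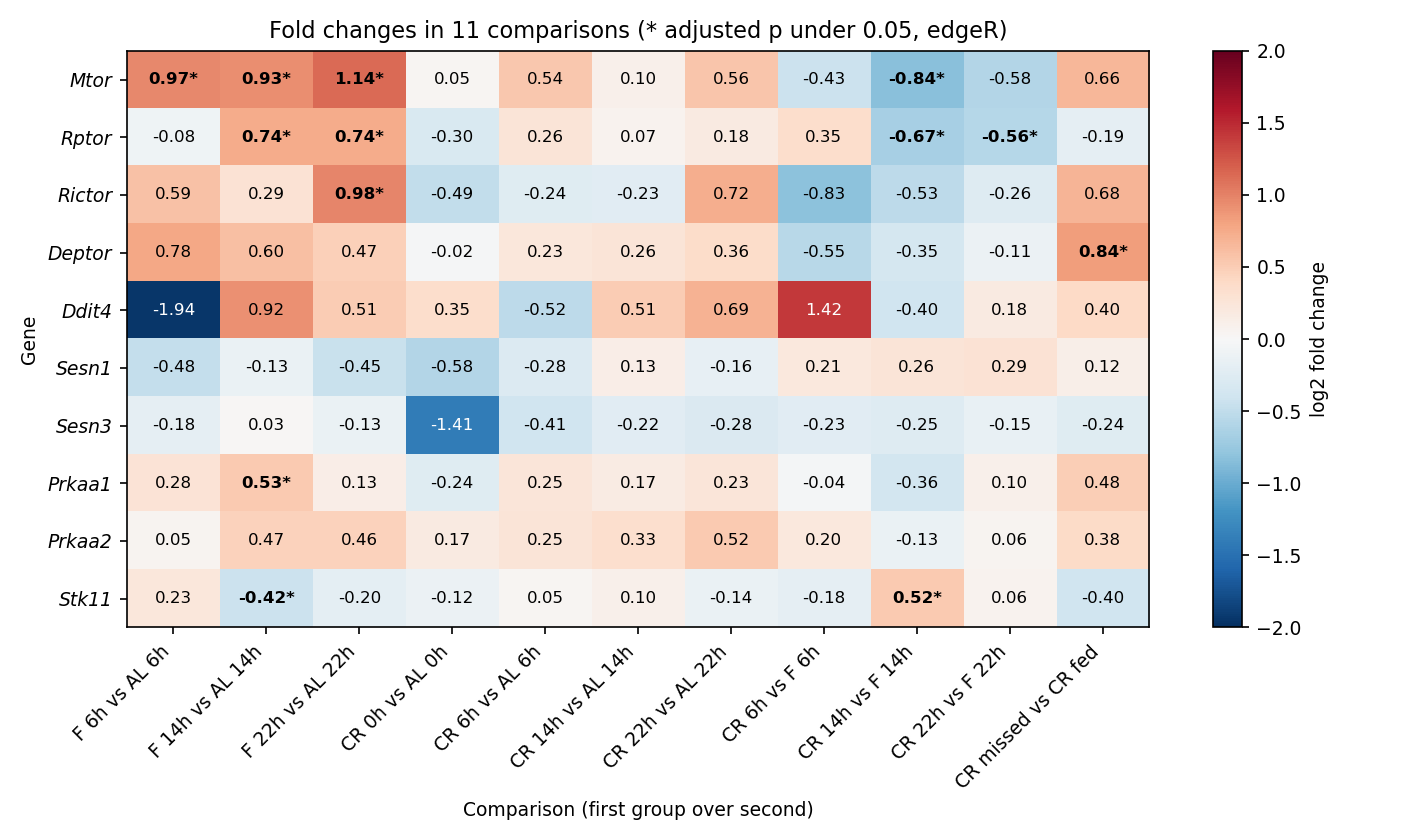
Log2 fold changes of the 10 members (rows) in 11 comparisons (columns, first group over second) by the edgeR model, coloured from blue (lower in the first group) to red (higher). Bold values with a star have an adjusted p under 0.05: 8 of them lie in the F and AL comparisons, 4 in the CR and F comparisons and 1 in the missed meal comparison.

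The missed meal comparison sets CR livers whose meal was withheld against CR livers that received it, both taken at zeitgeber time 18. Deptor, the inhibitor of mTOR, was the 1 of 10 members called, where 12.5% of all tested genes were called (6.34% higher, 6.13% lower). It had 125.5, 176.9 and 148.8 CPM in CR missed livers, against 75.9, 104.7 and 70.9 CPM in CR fed livers (0.84 ± 0.28, adjusted p = 0.0405 by edgeR). All CR missed libraries lay above all CR fed ones, and CR fed had the lowest mean of Deptor among the 13 groups. The call held with the length trend removed (0.71, adjusted p = 0.0181 by edgeR). It was lost without CR fed 1, CR fed 3, CR missed 2 or CR missed 3 (0.71 to 0.85, edgeR adjusted p = 0.0994 to 0.149), and without the libraries nearer to another diet, CR fed 3 among them (0.72, adjusted p = 0.0898 by edgeR).

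Mtor had 33.1, 34.6 and 38.7 CPM in CR missed livers, against 26.0, 24.4 and 16.8 CPM in CR fed livers, without overlap (0.66 ± 0.23, adjusted p = 0.0519 by edgeR). It was called by DESeq2 (0.66, adjusted p = 0.0388), and stood at 0.48 (adjusted p = 0.225 by edgeR) without the libraries nearer to another diet. Rictor had 14.6, 12.3 and 11.3 CPM in CR missed livers, against 7.62, 9.02 and 7.14 CPM in CR fed livers (0.68 ± 0.27, adjusted p = 0.0919 by edgeR). Prkaa1 had 14.3, 12.6 and 12.7 CPM in CR missed livers, against 9.20, 8.68 and 10.4 CPM in CR fed livers (0.48 ± 0.18, adjusted p = 0.0805 by edgeR). Stk11 had 78.3, 77.5 and 59.5 CPM in CR missed livers, against 99.5, 94.9 and 89.3 CPM in CR fed livers (-0.40 ± 0.15, adjusted p = 0.0834 by edgeR), and DESeq2 called it (-0.40, adjusted p = 0.0492). Without the libraries nearer to another diet the values were 0.60 for Rictor (adjusted p = 0.208), 0.54 for Prkaa1 (adjusted p = 0.0597) and -0.45 for Stk11 (adjusted p = 0.0881), all by edgeR. The summed erythroid markers were 4670 to 14400 CPM in CR missed livers and 947 to 2340 CPM in CR fed livers, with 4 of 5 called higher, and the summed endothelial markers were 237 to 266 CPM in CR missed livers and 148 to 172 CPM in CR fed livers, with 3 of 8 called higher. Their part in these values was not tested.

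Change over time was tested within each diet. In CR livers Sesn3 (adjusted p = 0.0171 by edgeR) and Sesn1 (adjusted p = 0.0471 by edgeR) were called, 2 of 10 members, where 20.6% of all tested genes were called. Without the 5 libraries nearer to another diet, CR 6 h 3, CR 14 h 3 and CR 22 h 3 among them, 3 members were called. The share of tested genes was then 27.4%. Sesn3 averaged 12.7 ± 1.55 CPM (SD, n = 2) at 0 h, 36.6 ± 9.95 CPM (n = 3) at 6 h, 26.6 ± 3.40 CPM (n = 3) at 14 h and 22.1 ± 4.74 CPM (n = 4) at 22 h. Sesn1 averaged 9.49 ± 0.490 CPM at 0 h, 14.5 ± 1.68 CPM at 6 h, 18.5 ± 5.08 CPM at 14 h and 11.5 ± 1.55 CPM at 22 h. Both sestrins were lowest at 0 h, and the highest mean came at 6 h for Sesn3 and at 14 h for Sesn1. The Sesn3 call was lost without CR 0 h 1, CR 0 h 2 or CR 6 h 2 (edgeR adjusted p up to 0.101). The Sesn1 call held in 2 of the 12 fits that each left out 1 CR library (edgeR adjusted p up to 0.203) and in 5 of the 12 other settings tried. Rptor (adjusted p = 0.053) and Stk11 (adjusted p = 0.0712) came near the threshold by edgeR, and DESeq2 called both.

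In AL livers no member was called over time by edgeR (0.276% of all tested genes) and none by DESeq2 (1.47%). At an unadjusted p under 0.05 the edgeR test gave 1 of 10 members, beside 1531 of 13786 tested genes. That test includes AL 0 h 2 and AL 22 h 2, whose clock genes went against their time. Without them 3.68% of tested genes and 1 member, Sesn3, were called by edgeR. In fasted livers none was called by edgeR (2.86% of all tested genes) and none by DESeq2 (5.55%). At an unadjusted p under 0.05 the edgeR test gave 4 of 10 members, beside 2336 of 13786 tested genes. A change over time of the difference of F and AL livers was called for no member by edgeR (0.0653% of all tested genes) or DESeq2 (0.522%). By edgeR 3 members had an unadjusted p under 0.05, beside 1160 of 13786 tested genes. For the difference of CR and AL livers no member was called by edgeR (0.442% of all tested genes) or DESeq2 (2.23%). There 1 member had an unadjusted p under 0.05 by edgeR, beside 1439 tested genes. Without the libraries nearer to another diet the share for CR and AL livers was 3.48%, again with no member called. That Mtor passed in F livers at 3 times and in CR livers at none is therefore a statement about each comparison. The direct test is that of CR against F livers at each time, given above.

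Ordered by their 13 group means, all 3 fasted groups headed the list for Mtor, for Rictor and for Deptor. These orders use CPM with the length trend kept. Fasted libraries had relatively more of the long transcripts, those of these genes are long, and no order was made with the trend removed. For Mtor the order was F 14 h (62.7 ± 7.26 CPM), F 22 h (57.9 ± 17.4 CPM), F 6 h (47.3 ± 2.21 CPM) and CR 22 h (38.7 ± 4.49 CPM), then CR missed, CR 14 h, CR 6 h, AL 14 h, CR 0 h, AL 0 h, AL 22 h, AL 6 h (24.2 ± 1.24 CPM) and CR fed (22.4 ± 4.88 CPM), each ± giving the SD. The libraries of all 12 neighbouring pairs in that order overlapped. Sorting by mean sets close groups side by side, so this overlap is a description and no test of a difference. All neighbouring pairs also overlapped for Rptor, Deptor, Sesn1, Prkaa1, Prkaa2 and Stk11, while Rictor, Ddit4 and Sesn3 each had 1 neighbouring pair without overlap. Rictor led in F 6 h (23.8 ± 3.21 CPM) and was lowest in CR fed (7.93 ± 0.975 CPM). Prkaa2 was highest in CR 0 h (75.5 ± 21.3 CPM, n = 2) and lowest in CR fed (41.6 ± 4.46 CPM). Stk11 had the narrowest range of the members, 0.53 on the log2 scale, between CR 14 h (98.4 ± 9.97 CPM) and F 14 h (68.5 ± 8.64 CPM).

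Over the 13 group means of log2 CPM, Rictor and Deptor varied most alike among the members (Pearson's r = 0.84), followed by Mtor and Deptor (r = 0.815) and by Deptor and Prkaa1 (r = 0.804). Prkaa2 and Stk11 were the most unlike pair (r = -0.69). The members with the widest ranges were Sesn3 (1.93 on the log2 scale), Ddit4 (1.84) and Rictor (1.57). Among 8859 genes averaging 5 CPM or more, the patterns most like Sesn3 were those of Camk1d (r = 0.918), Srd5a1 (r = 0.9) and Ptpra (r = 0.892). For Ddit4 they were Gdf10 (r = 0.806), Gtf2a1 (r = 0.783) and Proser2 (r = 0.773), and for Rictor they were Marf1, Dennd4c and Wdr48 (r = 0.951 each). These correlations are descriptions over 13 means that share libraries, depth and the length trend.

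Other genes of the pathway were counted from 7 lists of 81 genes, of which 77 were tested. In F livers against AL livers, 2 of 77 were called at 6 h, 16 at 14 h (9 upward, 7 downward) and 16 at 22 h (8 upward, 8 downward), beside the 2.34%, 24.5% and 11.5% of all tested genes. With the length trend removed the counts were 3, 13 and 7, beside 3.02%, 17.2% and 7.78% of all tested genes. The 2 genes called at 6 h with the trend kept were Ddit4l, a relative of Ddit4 (-2.83 ± 0.58, adjusted p = 0.00559 by edgeR), and Fnip1, a partner of folliculin at the lysosome (1.13 ± 0.29, adjusted p = 0.0281 by edgeR). At 14 h the largest changes were those of Ddit4l (-1.98 ± 0.59), the insulin receptor substrate Irs2 (1.62 ± 0.57), the AMPK-related kinases Sik1 (1.55 ± 0.45) and Sik2 (1.36 ± 0.34), the Ragulator subunit Lamtor4 (-1.29 ± 0.25) and the AKT-activating kinase Pdpk1 (0.98 ± 0.23). At 22 h they were Irs2 (2.20 ± 0.58), Sik1 (1.56 ± 0.44), the insulin receptor Insr (1.26 ± 0.22), Sik2 (1.04 ± 0.33), the mTORC2 subunit Prr5 (-1.03 ± 0.29) and the AMPK-related kinase Nuak2 (-0.96 ± 0.31). Of the 7 other partners in the mTOR complexes, 0 were called at 14 h, and 2 were lower and none higher at 22 h, Prr5 and Mlst8 (-0.76 ± 0.24). Of all tested genes 11.8% were called higher at 14 h and 6.06% at 22 h. For 7 genes a lack of upward calls is near those shares, so it shows no difference from Mtor, Rptor and Rictor. The upward calls of these members were themselves lost with the length trend removed.

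In CR livers against AL livers the counts were 1 of 77 at 0 h, none at 6 and 14 h and 10 at 22 h (7 upward, 3 downward), beside 0.479%, 0%, 0.0218% and 4.88% of all tested genes. Without the libraries nearer to another diet they were 5, 0, 4 and 14 of 77, beside 3.09%, 0.789%, 4.79% and 15.3%. That setting widens the difference of CR and AL livers by the way its libraries were picked. The gene at 0 h was Pdcd4, a translation repressor degraded downstream of mTORC1 (-1.71 ± 0.36, adjusted p = 0.0202 by edgeR). At 22 h the largest changes were those of Irs2 (2.92 ± 0.58), Sik1 (1.88 ± 0.43), the folliculin gene Flcn (1.23 ± 0.28), Fnip1 (1.14 ± 0.24), the sestrin Sesn2 (1.06 ± 0.27) and Insr (0.88 ± 0.21). In CR livers against F livers, 6 of 77 were called at 6 h (3 upward, 3 downward), 10 at 14 h (7 upward, 3 downward) and 4 at 22 h (3 upward, 1 downward), beside 6.8%, 17.1% and 9.44% of all tested genes. Without the libraries nearer to another diet they were 8, 8 and 4, beside 9.15%, 14.6% and 14.8% of all tested genes. Those called at 6 h with all libraries kept included Ddit4l (2.77 ± 0.55), the autophagy kinase Ulk1 (-1.37 ± 0.36), Fnip1 (-1.21 ± 0.25) and Sesn2 (-1.14 ± 0.29). After the missed meal 14 of 77 were called (7 upward, 7 downward), beside 12.5% of all tested genes. Without the libraries nearer to another diet 12 of 77 were called, beside 12% of all tested genes. The largest changes in CR missed over CR fed livers were those of Fnip1 (1.73 ± 0.25), Ulk1 (1.69 ± 0.36), Ddit4l (-1.62 ± 0.52), the mTOR-folding cofactor Telo2 (-1.46 ± 0.27), Sesn2 (1.07 ± 0.29) and Sik2 (1.06 ± 0.34). Over time in CR livers 18 of 77 changed, beside 20.6% of all tested genes. These lists were chosen with results of these livers known, and their counts are read only beside the share of all tested genes called. The median log2 fold change of the 77 genes lay between -0.07 and 0.13 in the 11 comparisons.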

How the data were processed

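Liver RNA was polyA-selected, made into non-directional libraries and sequenced as pairs of 150 bp on a NovaSeq 6000, per the labels' protocols. Reads were mapped by the authors to GRCm38 protein-coding genes with Bowtie, allowing 2 mismatches, and RSEM 1.2.3 gave the deposited expected counts and TPM, per the labels' protocols. The authors normalised the TPM with EBSeq to correct a potential batch effect that is not named, and these rescaled TPM are a deposited signal whose totals run from 817166 to 1319582 per library. Without strand, reads of overlapping antisense genes cannot be told apart.

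Expected counts were rounded to whole numbers and scaled by TMM. After edgeR's filter on low counts, 1 quasi-likelihood model of 13 groups over 38 libraries was fitted (edgeR 4.0.16, R 4.3.3), with p-values adjusted over 13786 genes by the Benjamini-Hochberg method at 0.05. The common dispersion was 0.0785 and 25 residual degrees of freedom remained. Alternatives used DESeq2 1.42.0, limma 3.58.1 on log2(rescaled TPM + 1 or 0.1), a replicate block, the compared groups alone, a lowess length trend removed (span 0.3), and libraries left out, those of doubtful diet or clock being chosen after the data were seen. Whether replicate numbers pair the libraries was not settled. Over 211 pairs with the same number the median r was 0.027 and the highest 0.61, and 57 were over 0.1. Over 454 pairs with other numbers the median was -0.015 and the highest 0.36, and 80 were over 0.1. Transcript lengths came from GENCODE vM21, with 99.5% of genes matched. Pathway genes were named where called, up to 6 per comparison by fold change, if a group averaged 1 CPM or more. The members and lists were chosen with earlier results of these data known.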

Additional observations from a re-analysis of the deposited data

Results flagged for a closer look

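Among the 10 members, 1 value stood apart from its group. Mtor had 45.3 CPM in CR 22 h 1, and the other libraries of that group had 36.5, 37.1 and 35.7 CPM. The test compares the gap of the highest or lowest library with the range of its group and was possible only in CR livers at 22 h, the 1 group of 4 libraries. Of 10 values tested, 1 stood apart, and chance gives about 1 in 20.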

How the results depend on the processing

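Over the member fold changes called in the report or under 1 of the 12 settings other than leaving out 1 library, 352 values under another setting kept direction and side of the threshold, 68 lost and 30 gained a call, and none changed sign. Fold changes never called did change sign, as in these examples from F against AL livers. With the length trend removed, Sesn3 at 14 h was -0.49, Rictor at 14 h -0.18 and Prkaa1 at 22 h -0.0098. Prkaa2 was then -0.11 at 6 h and -0.0020 at 14 h. With the replicate block, Rptor at 6 h was 0.0050. In F against AL livers at 6 h, where 1 member was called, DESeq2 called 2, limma on rescaled TPM 0 under both pseudocounts and without a filter, the compared groups alone 3, and the fits without the libraries nearest to another diet, or without both kinds of doubtful library, 2. At 14 h, where 4 were called, no filter and the compared groups alone gave 2 each. With the length trend removed the F and AL counts were 0, 1 and 0 at 6, 14 and 22 h, where the main count at 22 h was 3. Of all tested genes 3.02%, 17.2% and 7.78% were then called. In CR against AL livers, where none was called, DESeq2, the replicate block, the length trend removed and the fit without libraries nearest to another diet each called 1 at 0 h. At 22 h DESeq2, limma under both pseudocounts and the fit without libraries nearest to another diet called 1.

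In CR against F livers at 6 h, with none called, DESeq2, the replicate block, the compared groups alone, the length trend removed and the fit without both kinds of library called 1. At 14 h the length trend removed left 1 of 3. At 22 h the single call became 0 with DESeq2 size factors, no filter, limma without a filter, the compared groups alone, the length trend removed, and without libraries nearest to another diet or both kinds. After the missed meal, with 1 called, DESeq2, the replicate block and the compared groups alone called 3, the fit without 2 libraries of deviant clock 2, and limma without a filter and the fits without libraries nearest to another diet or both kinds 0. Over time in AL livers, with none called, the fits without the deviant clock libraries or both kinds called 1. Over time in CR livers, with 2 called, DESeq2 called 4, limma without a filter 0, and DESeq2 size factors, no filter, limma under both pseudocounts and the compared groups alone 1. The cause was not tested.

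Leaving out 1 library at a time gave 0 to 0 members in F against AL livers at 6 h, 2 to 4 at 14 h and 1 to 3 at 22 h. It gave 0 to 1 in CR against AL livers at 0 and 22 h and 0 to 0 at 6 and 14 h, and 0 to 1, 1 to 3 and 0 to 2 in CR against F livers at 6, 14 and 22 h. After the missed meal it gave 0 to 1, over time 0 to 1 in AL, 0 to 3 in CR and 0 to 0 in F livers, and 0 to 0 for both differences over time. With a replicate block, 5 members were called in F against AL livers at 14 h and 3 over time in CR livers. All other counts with the block are as given above or as in the report. Counts of 49 to 5091 per library limit Ddit4 most.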
